A study of Mus musculus with 91 samples.

Results

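The genes described here are the mouse MHC class I genes, the genes that supply them with peptide, and the genes of the interferon response. They were chosen by name: all rows of the count table whose symbol begins with H2-, Ifi plus a digit, Ifit, Irf or Oas, or that is B2m, Psmb8, Psmb9, Psmb10, a Tap or Tapbp gene, an interferon receptor or STAT gene of the interferon pathway, a Gbp or Irgm GTPase gene, Igtp, an Isg gene, Bst2, Usp18, Rsad2 or Nlrc5, provided that 3 or more of the 91 cells held a count. This gave 105 of 16580 genes. A few match by name only: Irf2bp1, Irf2bp2 and Irf2bpl encode proteins that bind or resemble partners of IRF2, H2-Ke6 encodes a dehydrogenase within the MHC, and Isg20l2 encodes a nucleolar exonuclease. The cells were single C57BL/6 mouse bone marrow cells from crushed bones, sorted as VCAM1+ and dye+ and as negative for CD45, Ter119, CD41 and CD71, and each made into its own Smart-seq2 library (full-length cDNA, cut with a home-made Tn5). There were 39 cells of the CD61+ gate (plates of 17 and 22 cells), 40 cells of the CD61- gate (plates of 24 and 16) and 9 cells of a VCAM1+ gate set without regard to CD61 (integrin beta 3). No treatment or genotype is given, and age, sex and number of mice are not given in the sources used here. Each gate was therefore taken as 1 sample and no test was made. A plate never mixed gates, and for that reason an effect of the gate and one of the plate cannot be told apart. The labels of 3 further cells disagree on the gate, and these cells entered no comparison.

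MHC class I molecules are made of a heavy chain, encoded by the H2 genes, and a light chain, beta 2 microglobulin, encoded by B2m. They carry peptides that the immunoproteasome (Psmb8, Psmb9, Psmb10) cuts, that TAP (Tap1, Tap2) pumps into the endoplasmic reticulum and that tapasin (Tapbp) and its relative (Tapbpl) help to load. Interferons bind the Ifnar or Ifngr receptors and act through STAT and IRF factors on effector genes such as Ifit1, Isg15 and Oasl2, while NLRC5 is the transactivator of class I genes. In bone marrow, stromal cells with abundant CXCL12, called CAR cells, form the niche of blood stem cells, and osteolineage cells make bone.

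The sequence before a gene's start is where such factors bind, so 6 stretches of 120 bases are shown, from RefSeq on GRCm38.p6, each 5′ to 3′ on the gene's own strand. They lie 1 to 120 bases before the start, or 40 to 159 for B2m, and belong to the light chain, the most abundant heavy chains, an interferon effector pair and Ifitm5, an osteoblast gene of the Ifitm family. Capitals mark the core of the interferon-stimulated response element (ISRE, which is GAAA, 2 bases of any kind and GAAA, on either strand) and the Y box (ATTGG on either strand).
B2m, chr2:122147528-122147647, + strand, with the ISRE core first and the Y box near the end: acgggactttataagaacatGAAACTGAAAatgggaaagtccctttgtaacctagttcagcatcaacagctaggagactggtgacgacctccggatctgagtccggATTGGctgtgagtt
H2-K1, chr17:34000348-34000467, - strand, with a Y box: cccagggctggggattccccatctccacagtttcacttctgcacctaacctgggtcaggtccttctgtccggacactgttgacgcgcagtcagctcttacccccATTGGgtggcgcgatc
H2-D1, chr17:35262974-35263093, + strand, with a Y box on each strand: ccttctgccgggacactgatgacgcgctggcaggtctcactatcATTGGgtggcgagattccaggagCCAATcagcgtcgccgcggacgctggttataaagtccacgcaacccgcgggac
Ifit1, chr19:34640769-34640888, + strand, with 2 ISRE cores on the other strand: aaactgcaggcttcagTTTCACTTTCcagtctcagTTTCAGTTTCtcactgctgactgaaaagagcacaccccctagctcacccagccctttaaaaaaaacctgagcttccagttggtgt
Isg15, chr4:156200819-156200938, - strand, with 3 overlapping ISRE cores: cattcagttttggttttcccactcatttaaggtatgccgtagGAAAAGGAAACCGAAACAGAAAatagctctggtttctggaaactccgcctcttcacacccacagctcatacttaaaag
Ifitm5, chr7:140950244-140950363, - strand, with neither motif: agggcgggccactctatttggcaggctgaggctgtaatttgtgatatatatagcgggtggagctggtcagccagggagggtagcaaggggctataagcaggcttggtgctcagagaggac

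Of the 105 genes, 84 had such a sequence, and the 250 bases before their start were searched on both strands. The ISRE core was in 30 of 84 (35.7%), against 3.38% of the 11271 genes of the count table with a promoter sequence. It was in 10 of 14 Ifit, Oas and effector genes (71.4%), and in 3 of 24 genes of class I chains and peptide supply (12.5%), against the same 3.38%. The Y box was in 19 of those 24 (79.2%), against 40.5% of the genes of the count table, and the interferon gamma element (GAS, TTCNNNGAA) was in 17 of 84 (20.2%), against 7.36%. A match in the letters is a description and not a bound site.

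Total counts per cell ran from 507713 to 6702475, and the deposited number of genes per cell had a median of 4670 for CD61+, 4002 for CD61- and 4551 for VCAM1+. Levels are given as CPM, a gene's counts scaled to a total of 1e+06. A clustering of the 88 cells that left out all 105 genes and the pathway lists used below gave 6 clusters. Clusters 1, 3 and 5 (29, 12 and 9 cells) were CAR-like, each with the adipocyte-lineage gene Adipoq among its 10 leading genes. Cluster 2 (17 cells), led by Spp1, Bglap and Col1a1, and cluster 4 (12 cells), led by Alpl and Wif1, were osteolineage-like, and cluster 4 cells also carried CAR markers. Cluster 6 (9 cells), led by Egfl7, Ly6c1 and Plvap, was endothelial-like. It also held a CD61- cell with counts of Ptprc, Laptm5, Siglech and Irf8 and a VCAM1+ cell with counts of Laptm5 and Cd79a, which are blood cell genes, although the sort was against CD45. CD61+ cells made up 14 of the 17 cells of cluster 2, and CD61- cells 2 of them.

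The 105 genes took 2.47% of all counts in CD61+ cells, against 3.46% in CD61- cells, with 1.06% in the VCAM1+ gate. A CD61+ cell had a count for a median of 42 of them, a CD61- cell for 48.5 and a VCAM1+ cell for 44. With every cell thinned to 948659 counts, which left out 6 CD61+ and 2 CD61- cells, the CD61+ median was 41, the CD61- median 42.5 and the VCAM1+ median 36. Before thinning, the cells kept had medians of 45 in CD61+, 49 in CD61- and 44 in VCAM1+ cells. Counts were found in all 88 cells for B2m and H2-D1, and in at least 50% of cells for 40 genes. At the other end, 16 genes had at least 50% of their counts from 1 cell, and for these a summed level describes that cell. Per kilobase of exon, the summed level over the 88 cells was highest for Ifitm3 at 7897 CPM per kb, followed by B2m at 7348, Ifitm2 at 2716, H2-D1 at 1645 and H2-K1 at 848.

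In the comparison of the gates, counts were summed over the cells of a gate, and a gene was called when its CPM differed at least 2-fold and both plates of 1 gate lay above both plates of the other. Of the 105 genes, 94 had enough counts to enter (10 or more in the 4 plates together, from 5 or more cells). In CD61+ cells, 24 of the 94 (25.5%) were called lower, against 10.6% of all 14063 genes entered, and 4 (4.26%) were called higher, against 12.9% of all genes. The counts by role between the gates that follow stand beside these shares of all genes. The median log2 ratio of the 94, CD61+ over CD61-, was -0.55, with 0.0084 over all genes. It ran from -0.70 to -0.38 over the 4 pairs of a CD61+ with a CD61- plate. Most of the highly expressed genes differed by less than 2-fold, and the called ones were mostly sparser. Only 12 of the 28 calls held when any single cell was left out: Gbp2, H2-DMb1, H2-K2, H2-Q10, Ifi203, Ifi211, Ifi213, Ifitm1, Irf1 and Irgm2 among the lower and Ifitm5 and Nlrc5 among the higher. Of the 28 ratios, 13 moved by more than 1.5 times without 1 cell, and none changed direction. Cells with 3 or more blood cell markers numbered 10 in CD61+ and 7 in CD61-, and without these and the endothelial-like cells 13 of 89 genes (14.6%) were lower in CD61+ cells, against 11.6% of all genes, and 8 (8.99%) were higher, against 13.1% of all genes. The median log2 ratio of the 89 was then -0.40, with 0.0097 over all genes. What these cells do to the single ratios was not tested further. In sums of this kind, fewer cells with a gene and less RNA per cell cannot be told apart, so cell values are given with them.

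**Figure D1:**
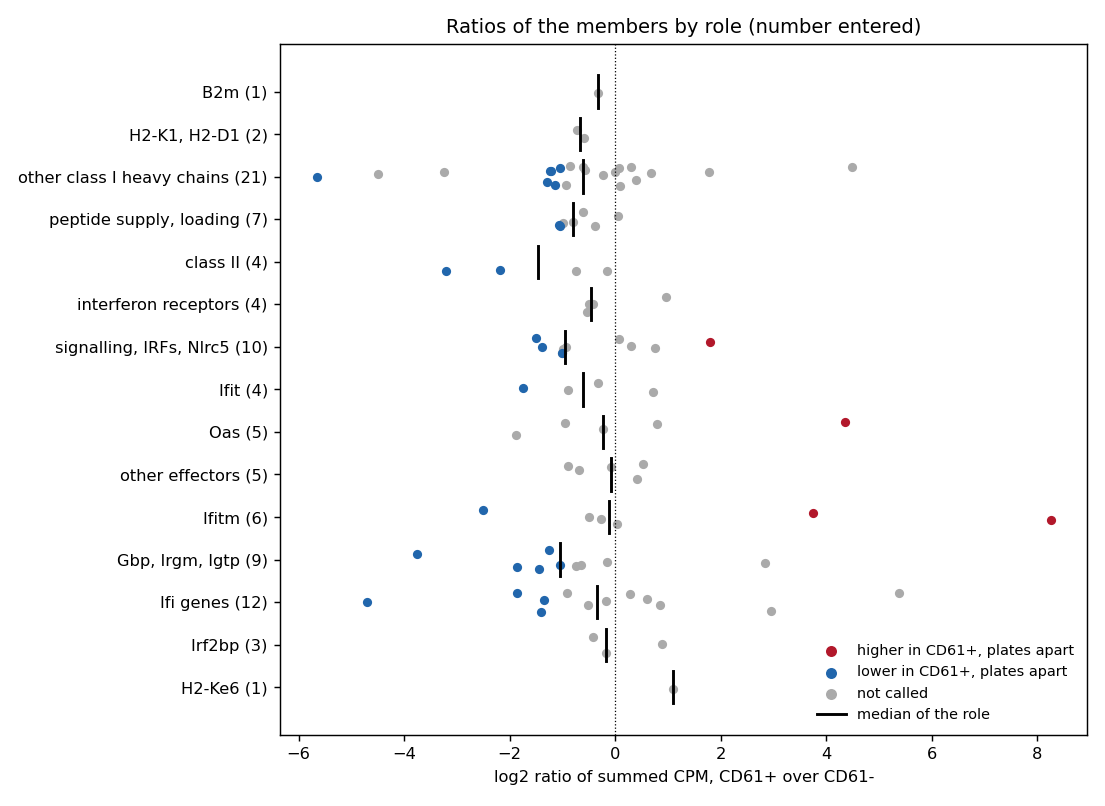
Log2 ratio of the summed CPM, CD61+ over CD61-, for each of the 94 genes that entered (points), by role (rows, with the number of genes). The black bars are the medians of the roles, blue points are the 24 genes called lower, red points the 4 called higher and grey points the rest; the GTPases lie furthest to the left among the larger roles, with a median of -1.05.

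The class I chains together had a summed level of 13061 CPM in CD61+ cells, against 18446 CPM in CD61- cells. The CD61+ plates had 12852 and 13278 CPM and the CD61- plates 19090 and 17578 CPM, so that the plates did not overlap, with a 1.41-fold difference that is under the 2-fold used for a call. B2m had a lowest, median and highest cell of 18.5, 6454 and 13510 CPM in CD61+ cells, against 1.27, 7197 and 16362 CPM in CD61- cells. H2-D1, 1 of the classical heavy chains, had 115, 2891 and 10574 CPM in CD61+ cells, against 439, 5993 and 10888 CPM in CD61- cells. H2-K1, the other one, had 0, 1559 and 7553 CPM in CD61+ cells, against 266, 2938 and 5928 CPM in CD61- cells. The cells of both gates overlapped over nearly the whole range for all 3 genes, and it was the middle of the CD61+ cells that lay lower. The sums differed 1.26-fold for B2m, 1.52-fold for H2-K1 and 1.64-fold for H2-D1, each lower in CD61+ cells. VCAM1+ cells had the lowest sums, with 2095 CPM of B2m, 806 CPM of H2-K1 and 1323 CPM of H2-D1, and 4 of these 9 cells were in the endothelial-like cluster.

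**Figure D2:**
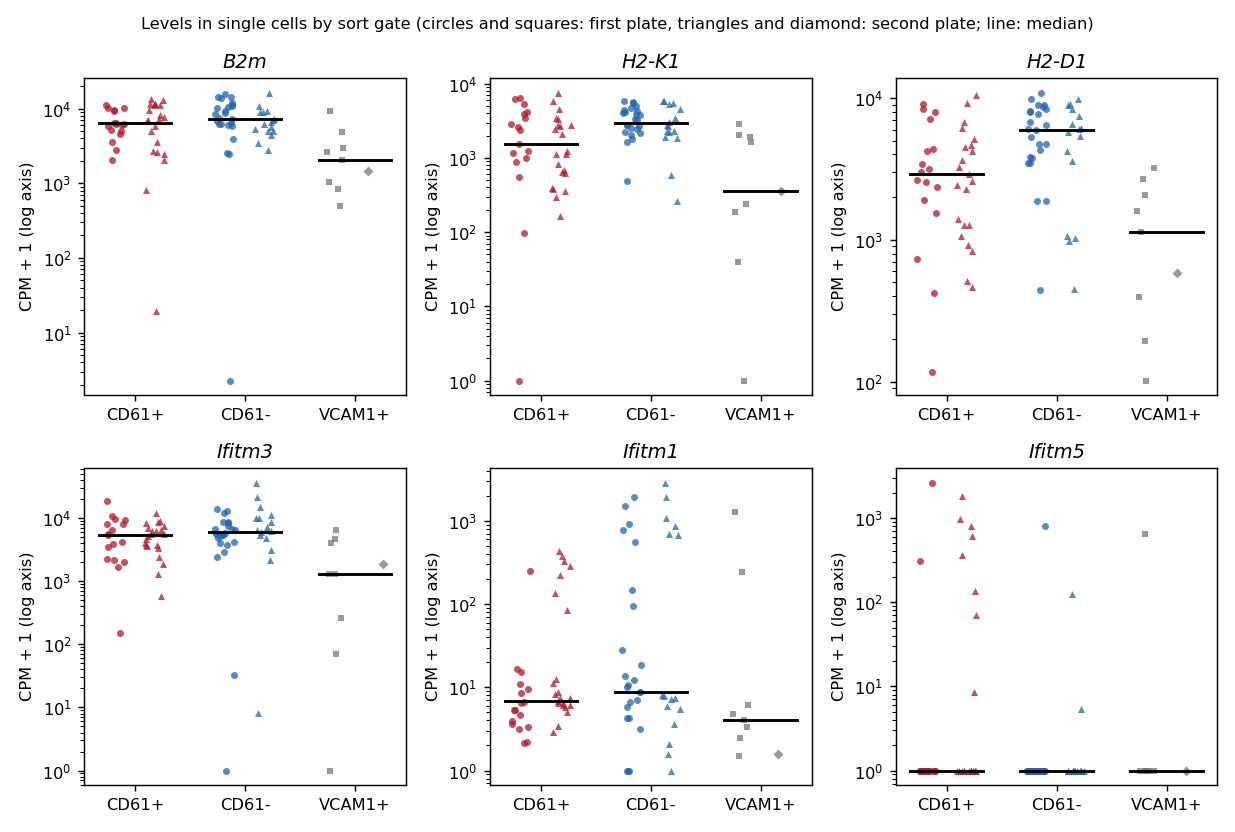
CPM plus 1 (log axis) of B2m, H2-K1, H2-D1, Ifitm3, Ifitm1 and Ifitm5 in each of 39 CD61+, 40 CD61- and 9 VCAM1+ cells (points, with the plates of a gate side by side; lines are medians). H2-D1 has a median of 2891 CPM in CD61+ cells and 5993 CPM in CD61- cells with overlapping ranges, and Ifitm5 has a count in 10 CD61+ cells, 3 CD61- cells and 1 VCAM1+ cell.

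Among the other class I heavy chains, 21 entered, 6 were called lower and none higher (median log2 ratio -0.61). These are nonclassical or Qa and Tla region genes, whose products present special ligands or serve as signals to natural killer cells. H2-T23, which encodes Qa-1, had 106 CPM in CD61+ cells (plates 88.8 and 123), against 250 CPM in CD61- cells (plates 338 and 130). The second plate of each gate thus lay close together. H2-Q10, known as a secreted class I chain of liver, had 68.5 CPM in CD61+ cells, against 168 CPM in CD61- cells, and its plates stood further apart (61.9 and 75.3 in CD61+, 185 and 146 in CD61-). H2-K2 had 0.339 CPM in CD61+ cells (10 cells with a count) and 17 CPM in CD61- cells (19 cells with a count), 50.1-fold lower. H2-Q4 was 2.20-fold lower, but its log2 ratio was -0.45 without E4 of the second CD61- plate, and H2-Bl, 2.33-fold lower, had under 5 CPM in each gate. H2-T22 was 2.07-fold lower (41 CPM in CD61+ cells, 84.9 CPM in CD61- cells). H2-Q7 and H2-Q6, the most abundant of the set, went the other way without a call: H2-Q7 had 409 CPM in CD61+ cells and 387 CPM in CD61- cells, and H2-Q6 had 211 CPM in CD61+ cells and 172 CPM in CD61- cells. These genes are near copies of each other. Of the 31-base words in their GENCODE vM21 transcripts, 26.7% for H2-D1, 22.8% for H2-K1, 24.5% for H2-T23, 39.1% for H2-Q7 and 50.3% for H2-Q6 also occur in another gene, and none for B2m, so the split of reads between heavy chains is uncertain. For H2-T22 the share was 51.0%. All 31 H2 genes lie on chromosome 17 (GENCODE vM21, GRCm38), between positions 33974659 and 37483552.

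The genes of peptide supply had a sum of 896 CPM in CD61+ cells (plates 960 and 828), against 1436 CPM in CD61- cells (plates 1605 and 1207). Of these 7 genes, 2 were called lower. Tapbp, the tapasin gene, had 193 CPM in CD61+ cells (plates 184 and 202) and 402 CPM in CD61- cells (plates 401 and 403), 2.08-fold lower, with cell medians of 143 CPM in CD61+ cells and 261 CPM in CD61- cells. This ratio barely passed the fold, and leaving out any of 5 cells ended the call. Tapbpl was 2.07-fold lower (19.5 CPM in CD61+ cells, 40.4 CPM in CD61- cells). The immunoproteasome genes were lower without a call: Psmb8 had 270 CPM in CD61+ cells and 412 CPM in CD61- cells, and Psmb9 had 63 CPM in CD61+ cells and 125 CPM in CD61- cells. For Psmb10 the sums were 273 CPM in CD61+ cells and 354 CPM in CD61- cells. Class II genes were sparse, H2-DMb2 and H2-Eb2 being under 1 CPM in each gate, and the called H2-DMb1 (3.23 CPM in CD61+ cells, 30 CPM in CD61- cells) and H2-Eb1 (2.49 CPM in CD61+ cells, 11.3 CPM in CD61- cells) had counts in 9 and 5 of the 88 cells. Without G3 of the second CD61+ plate, 29 CD61+ counts of H2-DMb1 were left and its log2 ratio was -6.29, against -3.21 with it. All CD61+ counts of H2-Eb1 came from A2 of the same plate, so that its log2 ratio of -8.15 without that cell is a bound set by 3 counts, against -2.19 with it and -1.45 without F7 of the first CD61- plate. H2-Ke6, named above as a dehydrogenase gene, had 124 CPM in CD61+ cells and 57.7 CPM in CD61- cells and was not called, as its plates were not apart.

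All 4 interferon receptor chains were measured and none was called. Ifnar2, the chain of the type I receptor that binds STAT2, had cells at 0, 350 and 4282 CPM (lowest, median, highest) in CD61+ cells, against 0, 590 and 2183 CPM in CD61- cells. Ifngr1, the ligand-binding chain of the interferon gamma receptor, had 0.485, 186 and 1004 CPM in CD61+ cells, against 0, 273 and 1446 CPM in CD61- cells. Ifngr2 had sums of 153 CPM in CD61+ cells and 204 CPM in CD61- cells. Ifnar1, the other type I chain, ran the other way, with 38.8 CPM in CD61+ cells and 19.8 CPM in CD61- cells, a ratio of 1.96. It had a count in 29 of 39 CD61+ cells and 24 of 40 CD61- cells.

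Of the 10 genes of signalling and transcription, 3 were called lower (Irf1, Irf5 and Irf7) and 1 higher (Nlrc5). Irf1, an IRF factor induced by interferon gamma, had cells at 0, 43.1 and 899 CPM in CD61+ cells, against 0, 270 and 1516 CPM in CD61- cells. Its sum was 2.60-fold lower in CD61+ cells, with plates of 191 and 51.8 CPM in CD61+ and 308 and 334 CPM in CD61-. Irf7, the amplifier of type I interferon, was 2.01-fold lower, at the edge of the fold, with a count in 13 of 39 CD61+ and 16 of 40 CD61- cells. Irf5 was near 0 in both gates (0.652 CPM in CD61+ cells, 1.84 CPM in CD61- cells), and its log2 ratio of -1.50 went to -4.51 without B1 of the first CD61+ plate, to -0.64 without D3 of the first CD61- plate and to -0.51 without F9 of the second CD61- plate. Irf3, a factor that induces type I interferon, had 132 CPM in CD61+ cells and 251 CPM in CD61- cells, and Irf8, of myeloid and plasmacytoid cells, 74.7 CPM in CD61+ cells and 150 CPM in CD61- cells, neither with a call. The genes of proteins that bind IRF2 were not called either: Irf2bp1 had 13.8 CPM in CD61+ cells and 15.7 CPM in CD61- cells, Irf2bp2 6.96 CPM in CD61+ cells and 3.76 CPM in CD61- cells, and Irf2bpl 24.1 CPM in CD61+ cells and 32.1 CPM in CD61- cells. Stat2, a signal transducer of the type I receptor, was not called and had 41.7 CPM in CD61+ cells and 82.5 CPM in CD61- cells. Nlrc5, the class I transactivator, was 3.47-fold higher, with 36 CPM in CD61+ cells (plates 53.1 and 18.4) and 10.4 CPM in CD61- cells (plates 9.26 and 11.9). It was higher in the gate whose class I sum was lower.

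The interferon-inducible GTPases, which attack intracellular microbes, had the largest share of calls by role. Of 9 genes, 5 were lower (55.6%, against 10.6% of all genes) and none higher (against 12.9% of all genes). Their sum was 156 CPM in CD61+ cells (plates 169 and 142), against 326 CPM in CD61- cells (plates 345 and 300). Irgm2 had 11.4 CPM in CD61+ cells and 41.5 CPM in CD61- cells, 3.64-fold lower. It overlaps Igtp on chromosome 11 (Igtp 58199556 to 58207591, Irgm2 58199618 to 58222782), so reads of the pair cannot be fully told apart. Igtp was 2.39-fold lower and Irgm1 2.08-fold lower. Gbp2 had 18.2 CPM in CD61+ cells from 8 cells with a count and 49.3 CPM in CD61- cells from 16. Gbp6 was 13.4-fold lower but had a count in 5 CD61+ and 8 CD61- cells. It also shares 74.2% of its 31-base words with another gene. Gbp3 (25.3 CPM in CD61+ cells, 42.4 CPM in CD61- cells) and Gbp7 (26 CPM in CD61+ cells, 40.7 CPM in CD61- cells) were not called. Without 1 cell, the first CD61- plate's E3, the log2 ratio of Gbp2 was -1.21, that of Igtp -0.99 and that of Gbp6 -3.20, against -1.44 for Gbp2, -1.26 for Igtp and -3.75 for Gbp6 with it. Leaving out a CD61+ cell moved them further the other way: Gbp2 was at -2.04 without B1 and Gbp6 at -5.32 without B10 of the first plate, and Igtp was at -1.85 without G3 of the second.

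Among the Ifi genes, Ifi35 had 55.9 CPM in CD61+ cells and 148 CPM in CD61- cells, 2.64-fold lower. Ifi211, of the cluster of HIN domain DNA sensors on chromosome 1, had 27.9 CPM in CD61+ cells and 71.3 CPM in CD61- cells, and Ifi203 of the same gene cluster was 3.63-fold lower, with a log2 ratio of -1.86, which was -1.55 without H9 of the first CD61- plate and -2.55 without G9 of the first CD61+ plate. Ifi213, also of that gene cluster, had 1 count in CD61+ cells and 93 counts in CD61- cells, which is 77.6-fold lower with a counting interval of 13.6 to 3099. Without F8 of the second CD61- plate, 30 of those 93 counts were left. Of 12 Ifi genes that entered, 4 were called lower. Ifi211 shares 78.9% of its 31-base words with another gene and Ifi203 21.6%, so the values of Ifi211 above all are uncertain. The most abundant, Ifi27, had 589 CPM in CD61+ cells and 664 CPM in CD61- cells and was not called, nor was Ifi47 (62.6 CPM in CD61+ cells, 117 CPM in CD61- cells). Ifi27l2a did not enter, having counts in 5 of the 88 cells. It had 59.2 CPM in CD61- cells and no count in CD61+ cells, where 3 counts over the gate would be 0.0391 CPM, so it was at least 1513-fold lower. Its highest cells, the first CD61- plate's D2 at 1504 CPM, the second CD61- plate's A6 at 1061 CPM and the VCAM1+ cell with Cd79a counts at 1650 CPM, carried nearly all of it.

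The Ifitm proteins are small membrane proteins that block virus entry, except Ifitm5, which is known for its role in bone mineralisation. Ifitm3 had cells at 152, 5348 and 18251 CPM in CD61+ cells, against 0, 6057 and 36064 CPM in CD61- cells. Ifitm2 had 812, 1578 and 4217 CPM in CD61+ cells, against 0, 1817 and 8994 CPM in CD61- cells. For both, the gates overlapped and medians lay close together. Ifitm1 was 5.69-fold lower in its sums, with 65.6 CPM in CD61+ cells (plates 37.4 and 94.8) and 373 CPM in CD61- cells (plates 315 and 451), but its cell medians were 5.91 CPM in CD61+ cells and 7.81 CPM in CD61- cells. The difference lay in a minority of cells: 8 of 39 CD61+ cells and 13 of 40 CD61- cells had at least 50 CPM, a limit chosen after the values were seen. Of the 8 CD61+ cells 6 were in cluster 2, while of the 13 CD61- cells 0 were; cluster 2 held 14 of the 39 CD61+ cells and 2 of the 40 CD61- cells. Ifitm5 was 13.4-fold higher, with 318 CPM in CD61+ cells (plates 395 and 239) and 23.8 CPM in CD61- cells (plates 37 and 6.06), from 10 CD61+ cells and 3 CD61- cells with a count. A single cell of the first CD61+ plate, F7 at 2616 CPM, held 45.5% of all Ifitm5 counts. Its log2 ratio was 2.63 without that cell and 6.91 without C6 of the first CD61- plate, against 3.74 with all cells. Ifitm10 was called higher on 764 counts in CD61+ cells and 2 counts in CD61- cells, a ratio of 458 with a counting interval of 126 to 3785. Of its counts, 88.3% came from 1 cell, the second CD61+ plate's D3, without which 88 CD61+ counts were left.

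The antiviral Ifit, Oas and other effector genes did not separate the gates as a group, but separated a few cells from the rest. Of the 14 that entered, Ifit2 was called lower (1.47 CPM in CD61+ cells, 4.96 CPM in CD61- cells) and Oas1g higher (12.3 CPM in CD61+ cells, 0.599 CPM in CD61- cells). For each of these genes, leaving out any of 5 cells ended the call. Without H9 of the first CD61- plate the log2 ratio of Ifit2 was -0.43, and without G10 of the second CD61+ plate it was -3.95, against -1.75 with all cells. That of Oas1g was 3.46 without D2 of the first CD61+ plate, 3.75 without A6 of the second CD61+ plate and 8.52 without A6 of the second CD61- plate, which left 3 CD61- counts, against 4.36 with all cells. Between the gates, Bst2 had 492 CPM in CD61+ cells and 795 CPM in CD61- cells, Isg15 91.6 CPM in CD61+ cells and 97.1 CPM in CD61- cells, and Oasl2 65.4 CPM in CD61+ cells and 76.9 CPM in CD61- cells. Ifit1 had 31.6 CPM in CD61+ cells and 58.4 CPM in CD61- cells, Ifit3 51.5 CPM in CD61+ cells and 64.9 CPM in CD61- cells, Ifit3b 17.4 CPM in CD61+ cells and 10.5 CPM in CD61- cells, Usp18 28.4 CPM in CD61+ cells and 19.8 CPM in CD61- cells, and Isg20, an exonuclease, 19.8 CPM in CD61+ cells and 36.9 CPM in CD61- cells. None of these was called, nor was Oasl1, under 10 CPM in each gate. Of 16 genes counted per cell at 10 or more counts, 4 of 88 cells had at least 9, 9 cells had 5 to 8, and 37 cells had at most 1. By the summed CPM of the 16 genes, the 3 highest cells were H9, G3 and A6, in that order. They had 12 (H9), 9 (G3) and 11 (A6) of the 16 genes at 10 or more counts. H9 of the first CD61- plate had 3787 CPM of Ifit1, 2657 CPM of Ifit3, 1909 CPM of Isg15 and 740 CPM of Usp18. G3 of the second CD61+ plate had 2373 CPM of Ifit1, 2701 CPM of Ifit3, 2825 CPM of Isg15 and 830 CPM of Usp18. A6 of the second CD61- plate had 919 CPM of Ifit3, 1031 CPM of Isg15 and 6809 CPM of Bst2, which encodes tetherin, a protein that holds virus particles at the membrane. These 3 cells were in clusters 1, 4 and 3. They held 87.4% of all Ifit1 counts and 73.7% of all Ifit3 counts, but 41.2% of Isg15 and 39.9% of Usp18 counts. A look at interferon effectors outside the 105 genes showed 5706 CPM of Cxcl10, a chemokine, in H9 and 29946 CPM in A6, where the median over cells was 0, while G3 had a Cxcl10 level of 0 CPM but 1380 CPM of Xaf1 and 863 CPM of Rtp4. Bst2, Oasl2 and Isg15 had counts in 67, 52 and 34 of the 88 cells, and Ifit1, Ifit3 and Rsad2 in 17, 13 and 5. Total counts were 1362124 in H9, 869832 in G3 and 1894523 in A6, and A6 had 2007 deposited genes, below the gate medians. Ifit3 shares 61.8% of its 31-base words with another gene, and Ifit3b 55.2%, so values of this pair are uncertain. Oas1g shares 55.1%, so its values are uncertain as well.

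**Figure D3:**
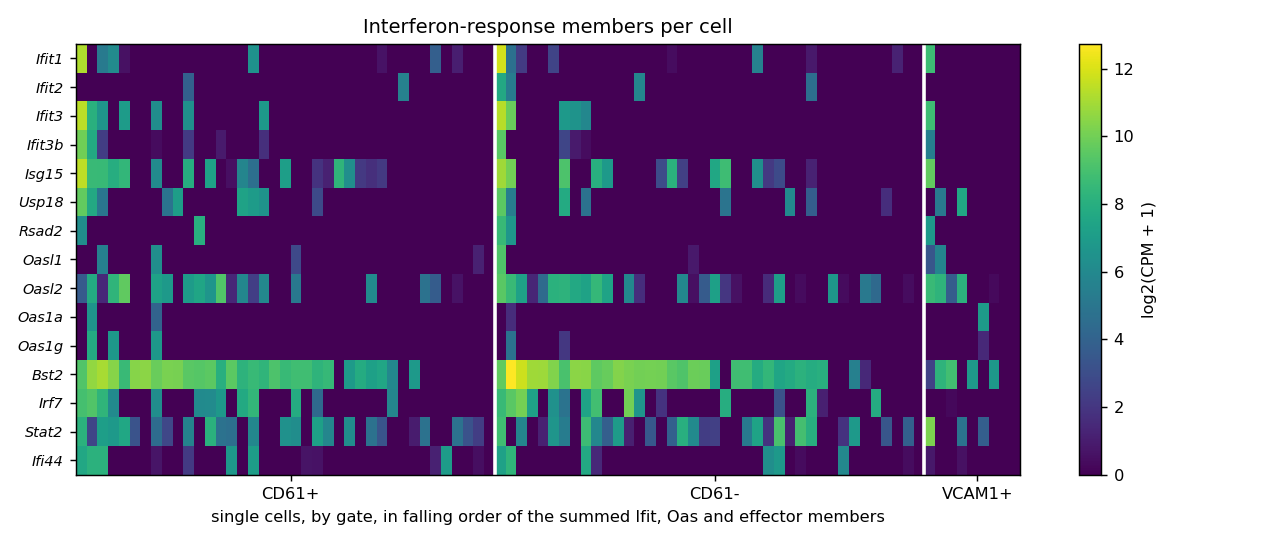
Log2(CPM + 1) of 15 interferon-response genes (rows) in the 88 single cells (columns), by gate and, within a gate, in falling order of the summed Ifit, Oas and effector genes. The leftmost cells of the CD61+ and CD61- blocks, G3 and H9, have Ifit1, Ifit3, Isg15 and Usp18 together, and most other cells have none of Ifit1 and Ifit3, while Bst2 is widespread.

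The 6 clusters spanned a wider range of class I sums than the CD61+ and CD61- gates did, which are only 2 groups. The VCAM1+ gate, at 4499 CPM, lay near the lowest cluster. The summed class I level was 7675 CPM in cluster 2 and 4399 CPM in the endothelial-like cluster 6, while it was 18676 CPM in cluster 1, 12886 CPM in cluster 3, 20665 CPM in cluster 4 and 18742 CPM in cluster 5. Among clusters 1 to 5, the osteolineage-like clusters 2 and 4 thus lay at the low and the high end. Taken as classes, osteolineage-like cells over CAR-like cells gave 7 of 94 genes lower and 1 higher (2-fold and the same side in each of 4 plates), beside 9.76% lower and 2.27% higher of all 13993 genes. This count depends on the settings: a Leiden resolution of 0.6, which put 26 cells in the osteolineage-like and 62 in the CAR-like class, gave 42 of 97 lower (43.3%), against 13% of all genes, and leaving out a plate gave 12 to 15 lower (13.8% to 16.9%), against 14.3% to 16.8% of all genes. The lower ones included Ifi211 (11.9 CPM in osteolineage-like cells, 77.9 CPM in CAR-like cells) and Tapbpl (9.70 CPM in osteolineage-like cells, 45.2 CPM in CAR-like cells), and the others were sparse: Gbp5 had 5.29 CPM in osteolineage-like cells and 12.3 CPM in CAR-like cells, H2-T10 2.36 CPM in osteolineage-like cells and 5.07 CPM in CAR-like cells, H2-T24 1.89 CPM in osteolineage-like cells and 4.72 CPM in CAR-like cells, and H2-Q3 and Ifi205 were under 1 CPM in both. The higher one, Oas1b (14.2 CPM in osteolineage-like cells, 1.58 CPM in CAR-like cells), had 67.1% of its counts from 1 cell. A finer split, chosen after these values were seen, used the CD61+ plates only, so that the gate is the same on both sides. In them, 14 cells of cluster 2 (4 and 10 by plate) were set against 15 CAR-like cells (7 and 8). Printed ratios pool both plates, and the plate enters only through the condition that both lie on the same side. Of 74 genes that entered, 50 (67.6%) were lower in cluster 2 by at least 2-fold on the same side in both plates, against 32.4% of all 11127 genes, and 3 were higher, against 11.9% of all genes. All genes were shifted to a median log2 ratio of -0.59, and the 20 most abundant genes, led by Spp1 at 15% of all counts, took 27.7% of counts in cluster 2, against 15.1% in the CAR-like cells. The members' median was -1.75, which is 1.16 below that shift, and 61 of 74 lay below it. Without the 20 most abundant genes in the totals, 45 of the 74 were lower and the median was -1.52, with -0.36 over all genes.

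**Figure D4:**
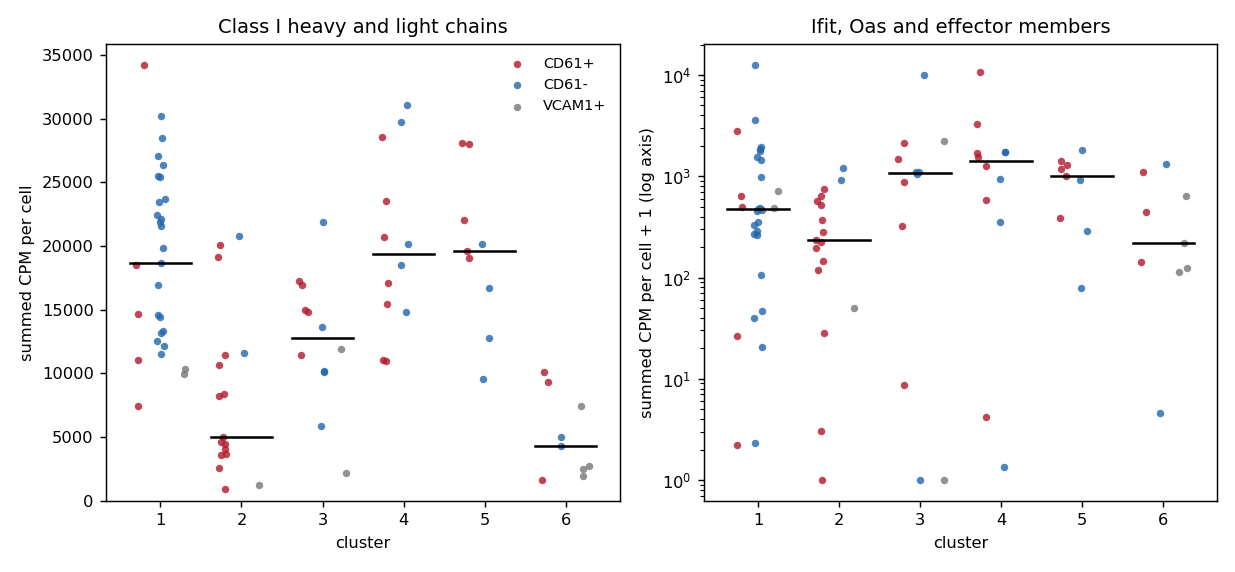
Summed CPM per cell of the class I heavy and light chains (left) and of the Ifit, Oas and effector genes (right, plus 1, log axis) in clusters 1 to 6, coloured by gate, with the median of each cluster as a line. Cluster 2 and cluster 6 lie lowest in class I, the 14 CD61+ cells of cluster 2 having a median of 4802 CPM.

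H2-K1 had 0, 586 and 3498 CPM (lowest, median, highest cell) in cluster 2, against 636, 2851 and 7553 CPM in the CAR-like cells. H2-D1 had 115, 1162 and 4487 CPM in cluster 2, against 1544, 3649 and 10574 CPM in the CAR-like cells. B2m had 18.5, 3207 and 11661 CPM in cluster 2, against 3628, 9536 and 13510 CPM in the CAR-like cells. For each of the 3 genes, 12 or 13 of the 14 cluster 2 cells lay below the median of the CAR-like cells, while the ranges overlapped. The log2 ratios were -1.86 for H2-K1, -1.78 for H2-D1 and -1.01 for B2m. Of the class I chains 15 of 19 were lower and 0 higher, and of these H2-K2, H2-Q1, H2-Q2 and H2-Q3 were under 1 CPM on both sides. This and the counts by role that follow stand beside 32.4% of all genes lower and 11.9% higher. Peptide supply had 4 of 7 lower, Tapbp among them at 110 CPM in cluster 2 and 311 CPM in the CAR-like cells, while Psmb8 was 1.99-fold, Psmb9 1.47-fold and Psmb10 2.01-fold lower without a call, Psmb10 because its second plate lay on the other side (265 CPM in cluster 2, 243 CPM in the CAR-like cells). B2m, which was called, was likewise 2.01-fold lower. Its log2 ratio was -0.97 with the mean CPM over cells and -0.78 without the 20 most abundant genes in the totals. Both are under the 2-fold used for a call. Of 9 genes of signalling and transcription 7 were lower, such as Irf7 (17.8 CPM in cluster 2, 87.8 CPM in the CAR-like cells). Of the receptor genes 3 of 4 were lower, with Ifnar2 at 248 CPM in cluster 2 and 783 CPM in the CAR-like cells. Of the GTPases 6 of 9 were lower. In Ifitm3 all 14 cluster 2 cells lay below the CAR-like median, with 152, 2866 and 5091 CPM in cluster 2, against 2261, 6900 and 18251 CPM in the CAR-like cells.

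The 3 genes higher in cluster 2 were Ifitm5, Ifitm1 and Ifi30. Ifitm5 had 722 CPM in cluster 2, from 10 of 14 cells, and no count in the 15 CAR-like cells, where 3 counts would be 0.122 CPM, so it was at least 5911-fold higher. None of the 105 genes had a part in the clustering, Ifitm5 included. Ifitm1 had 116 CPM in cluster 2 and 40.7 CPM in the CAR-like cells, with medians of 5.52 CPM in cluster 2 and 6.35 CPM in the CAR-like cells. Ifi30, a thiol reductase of antigen processing, had 35.7 CPM in cluster 2 and 11.7 CPM in the CAR-like cells, from 4 of 14 cells with a count in cluster 2 and 1 of 15 in the CAR-like cells. Its first plate had 2 counts in cluster 2 and 0 in the CAR-like cells, so the call rests on the second plate (61.3 CPM in cluster 2, 23.4 CPM in the CAR-like cells). The median total in cluster 2 was 2075590 counts and its median deposited number of genes was 5622, against 1733220 counts and 4632 genes in the CAR-like cells. Thinning to 1 depth left 14 cluster 2 cells and 10 CAR-like cells. Of 67 genes that then entered, 44 were lower, against 28.6% of all genes, and 2 higher, against 13.5%. Their median log2 ratio was -1.55, with -0.49 over all genes. The part of depth was not tested further.

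**Figure D5:**
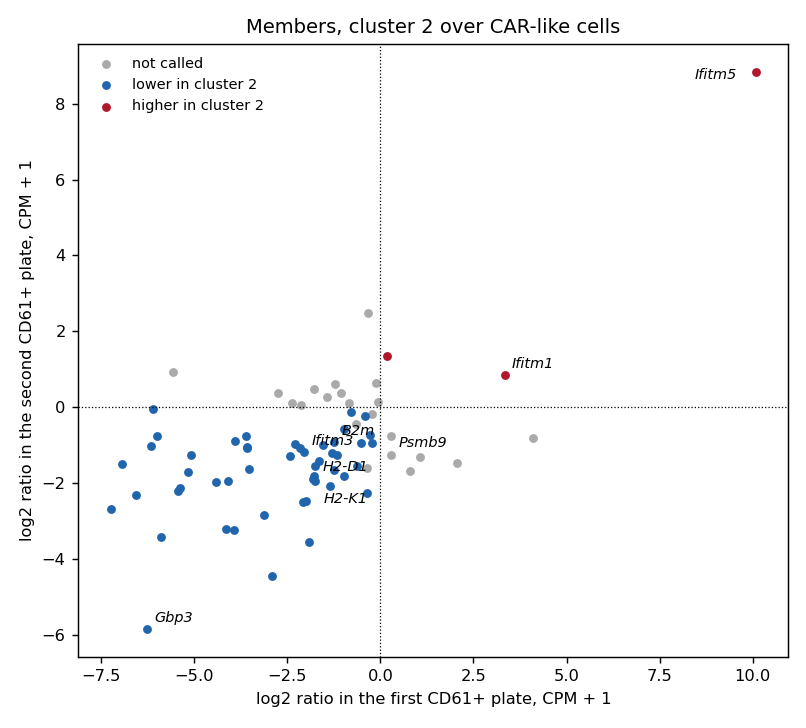
Log2 ratio of summed CPM plus 1, cluster 2 over CAR-like cells, in the first CD61+ plate (horizontal axis, 4 against 7 cells) and the second (vertical axis, 10 against 8 cells), 1 point for each of the 74 genes that entered. The 50 genes called lower (blue) fill the lower left, and Ifitm5 stands alone at the upper right.

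Against the other osteolineage-like cluster, 31 of 61 genes were lower in the 14 CD61+ cells of cluster 2 than in the 7 of cluster 4, against 22.5% of all 9691 genes, and 5 were higher, against 18.8%. Of the class I chains 9 of 16 were lower and 1 higher. The lower H2-Q1, H2-Q2 and H2-T3 and the higher H2-T24 were under 5 CPM on both sides. H2-K1 (1015 CPM in cluster 2, 3313 CPM in cluster 4) and H2-D1 (1657 CPM in cluster 2, 5704 CPM in cluster 4) were called lower, while B2m, with 4441 CPM in cluster 2 and 7565 CPM in cluster 4, was not. Of the receptor genes 1 of 4 was lower, of the GTPases 2 of 5 and of signalling and transcription 4 of 7. The class I sum was 7552 CPM in cluster 2 and 18204 CPM in cluster 4, and the lowest cell of cluster 4, at 10957 CPM, was above 11 of the 14 cells of cluster 2. The few cells of cluster 2 from elsewhere did not all share the low level: the 2 CD61- cells had 11613 and 20812 CPM and the VCAM1+ cell 1272 CPM. Over the 29 osteolineage-like cells of all gates, H2-D1 had a Spearman correlation of -0.70 with forward scatter, which grows with the size of a cell. That of H2-K1 was -0.68, while over the 50 CAR-like cells the values were 0.06 and 0.09. Over all 88 cells they were -0.27 and -0.30. Within plates they ran from -0.50 to 0.56 for H2-D1 and from -0.62 to 0.62 for H2-K1. With CD200 intensity, the osteolineage-like values were -0.60 for H2-D1 and -0.53 for H2-K1, and the CAR-like ones 0.32 and -0.01. The osteolineage-like cells share plates and the split into clusters 2 and 4.

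Between the gates, the CAR-like cells alone (15 CD61+ and 31 CD61- cells, chosen after the values were seen) differed little in class I. The class I sum was 19787 CPM in CD61+ cells (plates 17995 and 21580), against 18315 CPM in CD61- cells (plates 18457 and 18117), and the plates overlapped. Of 87 genes that entered, 14 (16.1%) were lower, against 12% of all 11974 genes, and 9 (10.3%) were higher, against 12.7%. The median log2 ratio was -0.12, with 0.09 over all genes. Some differences were as large or larger than over all cells: Ifitm1 had 40.7 CPM in CD61+ cells and 467 CPM in CD61- cells, Irf1 had 113 CPM in CD61+ cells (plates 176 and 50.5) and 375 CPM in CD61- cells (plates 372 and 380), and Igtp had 14.9 CPM in CD61+ cells and 69.9 CPM in CD61- cells. Irf9, a DNA-binding partner of STAT2, had 45.2 CPM in CD61+ cells (plates 46.9 and 43.6) and 5.69 CPM in CD61- cells (plates 5.53 and 5.92), and Nlrc5 had 40.5 CPM in CD61+ cells and 6.44 CPM in CD61- cells. H2-T22 turned round, with a log2 ratio of 0.34 in CAR-like cells and -1.05 over all cells. How far the share of cluster 2 cells accounts for the gate difference was not tested; cluster 2 held 35.9% of the CD61+ cells and 5% of the CD61- cells.

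Genes of the same pathways outside the 105 were read from lists. Of 14 constitutive proteasome genes 0 were called between the gates in either direction, and their median log2 ratio was -0.31. Of 11 further antigen processing genes 0 were called, with a median of 0.12. Of 12 JAK and STAT pathway genes 0 were called, with a median of -0.39. Of 34 further interferon effectors, 8 were lower in CD61+ cells (Adar, Parp9, Cd274, Cxcl10, Cxcl9, Tgtp1, Lgals9 and Phf11d) and 2 higher (Ddx60 and Ly6a), with a median of -0.44. Some of these are sparse: Cd274 had 0.078 CPM in CD61+ cells and 0.196 CPM in CD61- cells. Cxcl10 had a count in 1 CD61+ and 4 CD61- cells, and Ly6a in 5 CD61+ cells and 1 CD61- cell. Between the gates, 10.6% of all genes were lower and 12.9% higher. In cluster 2 over CAR-like cells of the CD61+ plates, 17 of 25 of these effectors were lower and 0 higher (median -2.27), while of the constitutive proteasome genes 0 of 14 were lower and 3 (Psmb3, Psmb6 and Psma5) were higher (median 0.18). Of the further antigen processing genes 2 of 11 (Erap1 and Lnpep) were lower there. The counts of cluster 2 over CAR-like cells stand beside 32.4% of all genes lower and 11.9% higher.

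Across the 88 cells, levels of some class I genes went together. The pairs given here are among the 15 with the highest correlation. The Spearman correlation of log2(CPM + 1) was 0.82 between H2-D1 and H2-K1, from 0.66 to 0.86 within the 4 plates. It was 0.63 between B2m and H2-K1, from 0.31 to 0.80 within plates, and 0.64 between H2-D1 and Tapbp, from 0.45 to 0.59 within plates. Not every such pair held in each plate. B2m with H2-D1 had 0.59 over all cells and 0.06 to 0.68 within plates, and H2-D1 with H2-Q4 had 0.61 and -0.14 to 0.81. The median over the 780 pairs of the 40 most widely counted genes was 0.16. Shared words between H2-D1 and H2-K1 may add to the first value, and all pairs share the cell and its total.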

How the data were processed

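Single mouse bone marrow cells were measured by Smart-seq2. The authors' deposited table holds estimated counts per gene and cell, not normalised; per the submitters' processing notes it was made with kallisto 0.43.0 and R 3.5.1 on mm10, with no annotation named there. Kallisto assigns reads of near-identical genes by likelihood. Forward scatter and the antibody channels are intensity values as deposited, and the number of genes per cell is the authors' own; 45 further columns per cell were not used. No doublet caller was run and no cell was removed for quality.

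Counts were summed per gate, plate or cluster and put on the CPM scale. A sum under 3 counts was raised to 3 before a ratio, and no ratio was taken where both sides were at or under it. No adjusted p-values were computed, as the labels name no animals and each gate is 1 sample. Counting intervals (95%, exact) cover counting error only, since Smart-seq2 reads are not independent molecules: for B2m the sum was 6304 CPM (6287 to 6322) in CD61+ cells and 7929 CPM (7911 to 7947) in CD61- cells, far narrower than the spread between plates.

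Clusters came from 2000 variable genes, 15 components, 10 neighbours and Leiden resolution 1 (scanpy 1.11.5, igraph 0.11.9), named by marker lists. Scaling alternatives used edgeR 4.0.16 and DESeq2 1.42.0. Genes were named with values when among the 4 highest of a role, when called, or when a receptor or STAT gene; a few such genes with low values are given by a limit, and other genes were chosen after their values were seen. The genes, lists and roles were chosen with earlier results of these data known. Values of 1 gene of the set are not reported here. Positions are from GENCODE vM21. Plate numbers 1 and 2 recur in both gates, but no label says that they pair plates.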

Additional observations from a re-analysis of the deposited data

Results flagged for a closer look

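Among the 9 VCAM1+ cells, 2 values stood apart from the others of their gate by Dixon's ratio. This is the distance to the nearest cell over the whole range, and 12 such series were looked at. The ratio served to pick single cells for a closer look and not as a test of the gate. Chance passes its limit in about 1 in 20 series only where values are normally distributed. That was not checked for the CPM of single cells, so the rate of chance here is not known and may be higher. The summed level of the genes of peptide supply was 1919 CPM in well B4 of the larger VCAM1+ plate, where the next cell had 468 CPM and the median was 235 CPM, a ratio of 0.756. This cell also had counts of Laptm5 and Cd79a, and their part in the value was not tested. B2m had 9443 CPM in well B7 of the same plate, where the next cell had 4877 CPM and the median was 2080 CPM, a ratio of 0.510.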

How the results depend on the processing

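Of the 24 genes lower and 4 higher in CD61+ cells, TMM scaling gave 24 lower and 3 higher, against 10.7% and 12.8% of all genes. DESeq2 size factors gave 25 lower and 3 higher, against 10.9% and 12.5%. A 4-fold limit left 6 lower (6.38%, against 3.74% of all genes). With a 1.5-fold limit, 9 were higher (9.57%, against 17.4%). Without the endothelial-like cells and those with blood markers, 13 were lower (11.6% of all genes) and 8 higher (13.1% of all genes), the median was -0.40, and the log2 ratios of sums were -0.32 for class I, -0.35 for peptide supply and -0.68 for GTPases. CAR-like cells alone (an alternative added after seeing the data, like the cluster 2 contrasts and the next 2) gave 14 lower (12% of all genes), 9 higher (12.7% of all genes) and a median of -0.12. Their log2 ratios of sums were 0.11 for class I, -0.11 for peptide supply, -0.36 for GTPases, -0.072 for the Ifitm family, 0.23 for receptors and 0.081 for Ifi genes. H2-T22 turned to 0.34 and Ifitm5 to -4.82 there, a bound set by 3 counts, as CD61+ CAR-like cells had none and CD61- ones 237. Without cluster 3, 2 were higher (2.2%, against 12.2% of all genes), and without the 2 cells richest in effectors 7 (7.45%, against 13%). The mean CPM over cells gave -0.40 for class I and -0.81 for GTPases, and thinned counts -1.30 for GTPases. Leaving out plates or cells gave 2 to 16 higher, the 16 of 86 (18.6%) without the first CD61- plate, where 27.2% of all genes were higher and their median was 0.25, a median of -0.69 to -0.38, class I sums of -0.56 to -0.42, GTPases of -1.24 to -0.845, and signalling of -1.38 to -0.17. The class contrast had 1 higher (2.27% of all genes) and 7 lower (9.76% of all genes). Resolution 0.6 gave 2 higher (5.08%) and 42 lower (13%), 15 neighbours 0 higher (2.15%), and the mean CPM 4 lower (8.66%). Leave-one-out gave 0 to 3 higher and 5 to 15 lower. Of all genes, 3.63% to 5.23% were higher and 14.3% to 16.8% lower when a plate was left out. Leave-one-out gave 33 to 51 lower and 2 to 5 higher for cluster 2 over CAR-like cells and 2 to 11 higher over cluster 4. Over CAR-like cells, 44 of 64 were lower without the first CD61+ plate, against 36.0% of all genes. Without the second, 33 of 42 were lower, against 44.5%. Over cluster 4, 11 of 52 were higher without the first CD61+ plate, against 36.4% of all genes. Without the second, 2 of 38 were higher, against 20.2%. Genes per cell with 10 or more counts had medians of 30 in CD61+ cells and 33.5 in CD61- cells, and thinning gave 42.5 in CD61- cells. The causes were not tested. With the replicate block, the plate number, 27 were lower (28.7%, against 12.4% of all genes) and 5 higher (5.32%, against 16%). The median was then -0.53. Deviations of like-numbered plates had a correlation of -0.039 over 14063 genes. Each gate has 2 plates and no named animals, which limits all comparisons.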

Other observations

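The 3 cells whose title and gate label disagree, all on the second CD61- plate by title, were left out above. Their class I sums were 14276 CPM (well B6), 14485 CPM (D9) and 16881 CPM (G6), and they had counts for 53 (B6), 41 (D9) and 55 (G6) of the 105 genes. B2m was 6493 CPM in B6, 6563 CPM in D9 and 4364 CPM in G6. Ifitm1 was 2.35 CPM in B6, 1504 CPM in D9 and 9.53 CPM in G6, and Isg15 was 0 CPM in B6 and D9 and 199 CPM in G6.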
